A study of Bos taurus with 6 samples.

Results

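The genes described here are 6 innate immune genes known from myeloid cells, listed by Ensembl gene ID: the lipopolysaccharide co-receptor CD14 (ENSBTAG00000015032), the Toll-like receptors TLR2 (ENSBTAG00000008008) and TLR4 (ENSBTAG00000006240), and the calgranulins S100A8, S100A9 (ENSBTAG00000006505) and S100A12 (ENSBTAG00000012638). The rule names genes and uses no threshold on a measured value, but the list was drawn up with earlier results of these libraries known. Of the 6 genes, 5 were measured, out of 36075 gene IDs in the count tables, and S100A8 was not analysed here. All 5 passed the filter on low counts, which left 14211 genes for the test. The count tables hold gene IDs without names, and the names of the 5 IDs came with the list.

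CD14 sits on the surface of monocytes and macrophages and hands lipopolysaccharide, a component of the wall of Gram-negative bacteria, to TLR4. TLR2 recognises bacterial lipopeptides, with TLR1 or TLR6 as its partner, and both Toll-like receptors signal to NF-κB and inflammatory cytokine genes. Calgranulins are small calcium-binding S100 proteins that neutrophils and monocytes make in large amounts. S100A9 pairs with S100A8 to form calprotectin, which binds zinc and manganese, and S100A12 is known as a ligand of the receptor RAGE. Fibrocytes arise from CD14-positive blood cells, and loss of CD14 as they mature in culture has been described. In the RefSeq annotation of the bovine assembly ARS-UCD2.0 the 3 calgranulin genes stand side by side, in the order S100A8, S100A12 and S100A9.

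RNA sequencing was carried out on bovine (Bos taurus) fibrocytes, adherent cells with traits of both leukocytes and fibroblasts, which were cultured from the nucleated fraction of blood on a coat of 0.1% gelatin. All libraries came from cells in high-glucose DMEM to which 20% fetal bovine serum, non-essential amino acids and penicillin-streptomycin were added, and this alone is the fibroblast medium, FbM. FcM, the medium for fibrocytes, further contained dexamethasone at 10 nM (a glucocorticoid), L-ascorbic acid-2-phosphate at 0.1 mM, PDGF-BB and EGF at 10 ng/mL, A83-01 at 0.5 μM (an inhibitor of TGF-β type I receptors) and CHIR99021 at 1.5 μM (an inhibitor of GSK-3). Each medium has 3 libraries, FbM_1944, FbM_1951 and FbM_1962 against FcM_1944, FcM_1951 and FcM_1962, whose titles share 3 numbers. No source used here says what these numbers identify, how long the cells were cultured or whether the libraries came from separate animals, so p-values measure the spread between these libraries, which may be technical. The stated design looks for culture conditions with less inflammatory response and with growth. Whether the levels of the genes here reflect inflammatory response was not tested. FcM differs from FbM in all 6 additives at once, so their parts cannot be told apart.

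Depth was 15925280 to 19149516 reads assigned to genes per library, and 3 reads in a library correspond to 0.154 to 0.202 CPM (reads scaled to library size, here with TMM factors). Over all tested genes FcM_1962 stood apart from its group: its Spearman correlation was 0.806 with FcM_1944 and 0.879 with FcM_1951, against 0.915 to 0.931 with the 3 FbM libraries. Results are therefore given with and without it. Defining markers of fibrocytes and of other blood cells were not analysed here, because the gene IDs were not paired with their names, so the cell type is as labelled.

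Both calgranulins measured were far lower in every FcM library than in any FbM library, and both passed the test. S100A12 stood at 84.5, 121 and 78.0 CPM in FbM_1944, FbM_1951 and FbM_1962, from 1367, 2363 and 1157 reads. It stood at 0.925, 2.18 and 2.90 CPM in FcM_1944, FcM_1951 and FcM_1962, from 15, 39 and 47 reads. The lowest FbM library was thus far above the highest FcM library, which was FcM_1962. FbM averaged 94.6 ± 23.3 CPM (SD, n = 3) and FcM 2.002 ± 0.999 CPM (SD, n = 3), a ratio of 47.3. The fitted log2 change was -5.56 (SE 0.49; edgeR quasi-likelihood test, adjusted p = 0.00987 over all 14211 genes).

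S100A9, the calprotectin subunit, followed the same pattern on fewer reads. Its level was 9.03, 21.1 and 22.7 CPM in FbM_1944, FbM_1951 and FbM_1962, from 146, 412 and 336 reads. In FcM_1944, FcM_1951 and FcM_1962 it was 0.0617, 0.448 and 0.925 CPM, from 1, 8 and 15 reads. The single read in FcM_1944 puts that level between 0.00156 and 0.344 CPM (exact 95% Poisson interval, which covers counting error only), so the order among the FcM libraries is loosely set. FbM averaged 17.6 ± 7.47 CPM (SD, n = 3) and FcM 0.478 ± 0.433 CPM (SD, n = 3), a ratio of 36.8, or 69.2 without FcM_1962. The fitted log2 change was -5.18 (SE 0.87; edgeR adjusted p = 0.0327). In these bulk libraries, fewer cells that make a transcript and less of it per cell cannot be told apart.

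The 2 calgranulins were thus the genes called among the 5 measured, both lower in FcM. Of all genes tested, 2.38% were called lower in FcM. Both also had all 3 FcM libraries below all 3 FbM libraries, an arrangement that 17.1% of tested genes showed. The receptors CD14, TLR2 and TLR4 showed neither. The same 2 genes were called by DESeq2, where 9.08% of tested genes were called lower, and by edgeR with the number as a block, where 1.91% were.

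**Figure D1:**
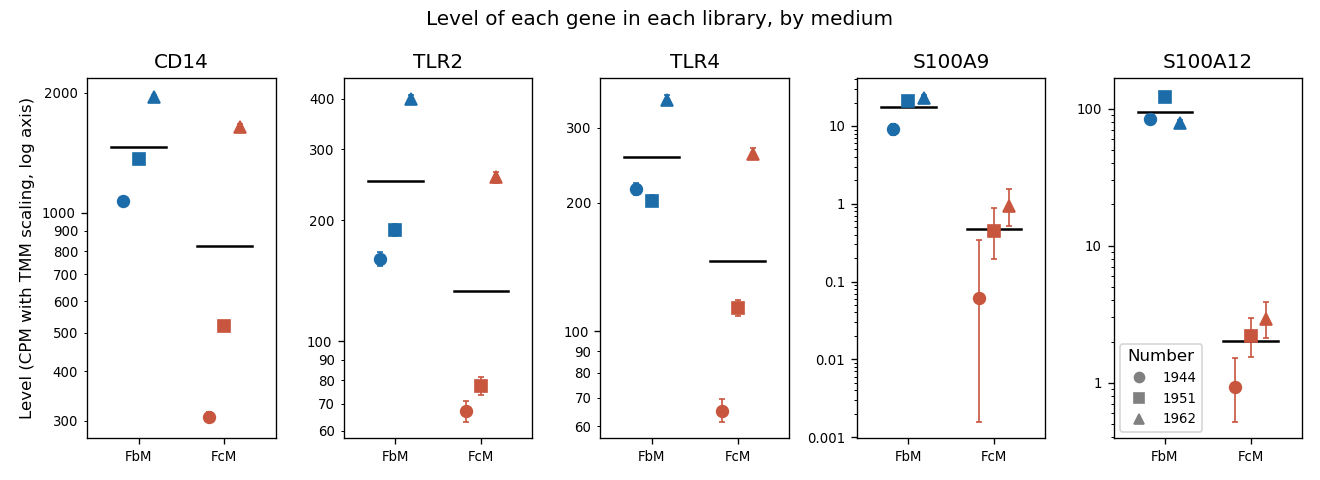
Level of each gene in each library, in CPM with TMM scaling on a log axis that differs between panels; circles, squares and triangles are the 3 numbers in the titles, bars on the points are exact 95% Poisson intervals of the read count, and black lines are the means of each medium. S100A9 and S100A12 do not overlap between the media, while for CD14, TLR2 and TLR4 the triangle of FcM (FcM_1962) lies within the range of FbM.

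The receptors were lower in FcM_1944 and FcM_1951 than in any FbM library, but not in FcM_1962. CD14 stood at 1069, 1361 and 1956 CPM in FbM_1944, FbM_1951 and FbM_1962 and at 307, 520 and 1646 CPM in FcM_1944, FcM_1951 and FcM_1962. Its level in FcM_1962 exceeded those of FbM_1944 and FbM_1951, so the media overlapped. Its mean was 1462 ± 452 CPM for FbM (SD, n = 3) against 824 ± 720 CPM for FcM (SD, n = 3), and the fitted log2 change of -0.83 (SE 0.64) did not pass the test (edgeR adjusted p = 0.438).

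TLR4, the signalling receptor for lipopolysaccharide, stood at 216, 203 and 349 CPM in FbM_1944, FbM_1951 and FbM_1962. In FcM_1944, FcM_1951 and FcM_1962 it stood at 65.3, 113 and 261 CPM. Again only FcM_1962 reached the levels of FbM, where it exceeded FbM_1944 and FbM_1951. Its mean was 256 ± 81.0 CPM for FbM (SD, n = 3) against 147 ± 102 CPM for FcM (SD, n = 3), with a fitted log2 change of -0.80 (SE 0.52; edgeR adjusted p = 0.359).

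TLR2, the lipopeptide receptor, stood at 160, 189 and 399 CPM in FbM_1944, FbM_1951 and FbM_1962 and at 67.0, 77.6 and 256 CPM in FcM_1944, FcM_1951 and FcM_1962. FbM_1962 had more TLR2 than any other library, and FcM_1962 came next. Its mean was 249 ± 130 CPM for FbM (SD, n = 3) against 133 ± 106 CPM for FcM (SD, n = 3), with a fitted log2 change of -0.90 (SE 0.61; edgeR adjusted p = 0.377). For each of the 3 receptors FbM_1962 was the highest FbM library and FcM_1962 the highest FcM library.

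Which genes passed depended on single libraries. Without FcM_1962 all 5 genes were called lower in FcM, where 11.9% of the genes tested were. The log2 change was then -1.83 (SE 0.40, adjusted p = 0.0171) for CD14, -1.80 (SE 0.44, adjusted p = 0.0242) for TLR2 and -1.53 (SE 0.38, adjusted p = 0.0241) for TLR4, by edgeR. The mean of the other FcM libraries was 413 CPM for CD14, 72.3 CPM for TLR2 and 89.4 CPM for TLR4, and FbM stood 3.54, 3.45 and 2.86 times higher. In those 5 libraries all 5 genes had both FcM libraries below all 3 FbM libraries, as 27.9% of tested genes did. With FbM_1962 left out as well, edgeR called 7.14% of genes tested lower in FcM. TLR2 (log2 change -1.27, adjusted p = 0.0339) and both calgranulins were then called. CD14 (-1.55, edgeR adjusted p = 0.0511) and TLR4 (-1.22, edgeR adjusted p = 0.0677) were not. DESeq2 on the same libraries called all 5, among 4196 genes called in either direction.

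Without any one of FbM_1944, FbM_1951, FbM_1962 or FcM_1951 neither calgranulin kept its edgeR call, and few genes of any kind did: 0.0327%, 0.0132%, 0.0652% and 0.0205% of the genes tested were called lower in FcM in these fits. For S100A12 the adjusted p was then 0.0648, 0.0532, 0.0598 and 0.0605, and the log2 change lay between -5.92 and -5.21 over all single leave-outs. With the test kept to the genes tested with all libraries, S100A12 was called without FbM_1951 (adjusted p = 0.0420) and without FbM_1962 (0.0416). For S100A9 the adjusted p was 0.114, 0.141, 0.159 and 0.146 in the order above, with log2 changes from -6.05 to -4.67. Both had an unadjusted p under 0.05 in each of these fits, and the DESeq2 Wald test called both in each. Both calgranulins kept their call without FcM_1944, at adjusted p = 0.0153 for S100A12 and 0.0398 for S100A9 (1.04% of genes called lower), and without FcM_1962, at 0.00128 and 0.00416. The test by limma-voom on all libraries called S100A12 but not S100A9 (adjusted p = 0.0544), with 2.16% of tested genes called lower.

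**Figure D2:**
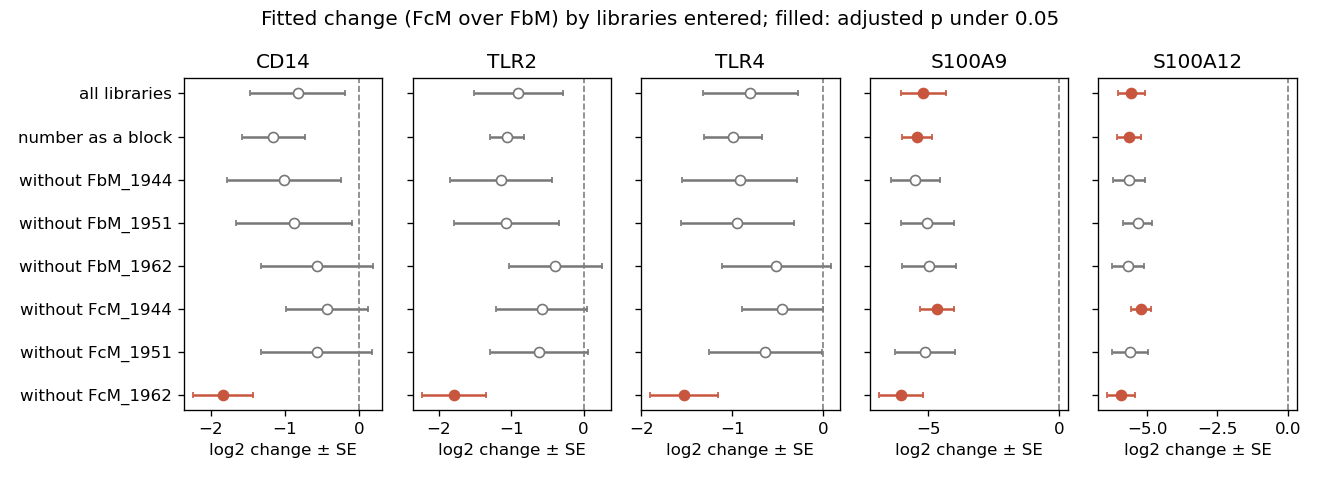
Fitted log2 change (FcM over FbM) with its standard error for each gene, by edgeR, with all libraries, with the number as a block and without each library in turn; x axes differ between panels, and filled red points have an adjusted p under 0.05. The points of S100A9 and S100A12 stay at -4.67 or below throughout, while those of CD14, TLR2 and TLR4 are filled only without FcM_1962.

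Within each number, every one of the 5 genes was lower in FcM than in FbM, which held in all 3 numbers for 27.9% of tested genes. S100A12 was 91.4 times lower in FcM_1944 than in FbM_1944 (95% counting interval 55.2 to 164), 55.6 times lower in FcM_1951 than in FbM_1951 (40.5 to 78.4) and 26.9 times lower in FcM_1962 than in FbM_1962 (20.1 to 36.8). For S100A9 the level was 146 times lower in FcM_1944 than in FbM_1944 (25.9 to 5821), 47.3 times lower in FcM_1951 than in FbM_1951 (23.8 to 110) and 24.5 times lower in FcM_1962 than in FbM_1962 (14.6 to 44.2). The interval of the first pair is wide because it rests on 1 read in FcM_1944. FcM_1962 and FbM_1962 thus differed least for both calgranulins, by 24.5-fold for S100A9 and 26.9-fold for S100A12. For S100A9 the intervals of all pairs overlap, so the order of its pairs is loosely set.

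The receptors differed less within each number. CD14 was 3.49 times lower in FcM_1944 than in FbM_1944 and 2.62 times lower in FcM_1951 than in FbM_1951, but 1.19 times lower in FcM_1962 than in FbM_1962 (95% counting interval 1.17 to 1.21). TLR4 was 3.30, 1.79 and 1.34 times lower over the same pairs. TLR2 was 2.39, 2.43 and 1.56 times lower. The pair of FcM_1962 and FbM_1962 had the smallest difference for all 5 genes. The intervals are exact binomial ones from the reads of each pair, so they compare these libraries and not the media.

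**Figure D3:**
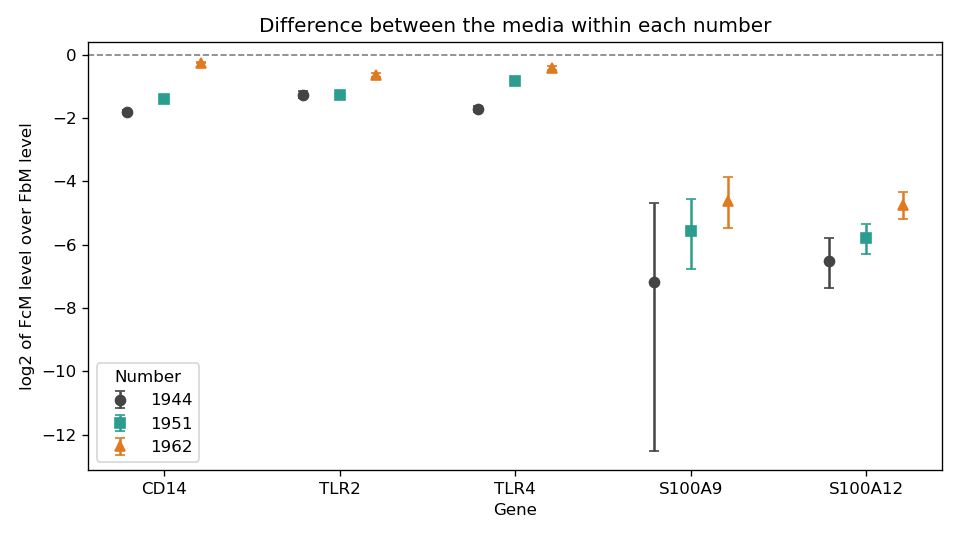
Log2 ratio of the FcM level to the FbM level for the libraries that share a number, with exact 95% intervals from the read counts. All 15 points lie below 0, those of S100A9 and S100A12 at -4.61 or below and those of CD14, TLR2 and TLR4 between -1.80 and -0.25.

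The mean log2 ratios of the receptors to each other differed little between the media, whereas the calgranulins stood lower against the receptors in FcM. The log2 ratio of CD14 to TLR4 averaged 2.52 ± 0.22 over FbM and 2.36 ± 0.26 over FcM (SD, n = 3 per medium; two-sided exact permutation p = 0.5). With 3 libraries per medium, a p this high does not show an unchanged ratio. The log2 ratio of CD14 to S100A12 averaged 3.93 ± 0.63 over FbM and 8.47 ± 0.63 over FcM, without overlap (two-sided exact permutation p = 0.1, the least possible with 3 libraries against 3). Ratios between genes also depend on gene length, which cancels in the difference between the media.

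Of the 10 pairs among the 5 genes, the 6 that join a receptor to a calgranulin shifted by 4.54 to 4.80 on the log2 scale toward the receptor in FcM, each without overlap (exact permutation p = 0.1 each, 0.167 after Benjamini-Hochberg adjustment over the 10 pairs). These 6 ratios are built from the same 5 genes and restate their single changes, so they are not separate results. The share of other gene pairs without overlap was not computed, but 17.1% of single genes had all FcM libraries below all FbM libraries. FcM_1962 shared the shift toward the receptor: its level lay on the FbM side for the receptors and near the other FcM libraries for the calgranulins. On a log2 scale where 0 is the mean of FbM and 1 the mean of FcM_1944 and FcM_1951, FcM_1962 was at -0.12 for CD14, -0.09 for TLR2, -0.05 for TLR4, 0.70 for S100A9 and 0.84 for S100A12. This position was not computed for other genes. Over all tested genes FcM_1962 also lay nearer to FbM (Spearman correlation 0.915 to 0.931) than to the other FcM libraries. The other 4 pairs, within the receptors or within the calgranulins, shifted by -0.15 to -0.07 (exact permutation p from 0.5 to 1). For S100A9 against S100A12 the log2 ratio averaged -2.51 ± 0.72 over FbM and -2.61 ± 1.16 over FcM (SD, n = 3 per medium), so a change smaller than this spread would not be seen. The exact permutation p cannot fall below 0.1 here, so the test could not pass 0.05 for a change of any size. It therefore does not show that the proportions within the receptors or within the calgranulins were unchanged.

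Summed over CD14, TLR2 and TLR4, the level was 1445, 1753 and 2704 CPM in FbM_1944, FbM_1951 and FbM_1962 and 439, 711 and 2163 CPM in FcM_1944, FcM_1951 and FcM_1962. Summed over S100A9 and S100A12, it was 93.6, 142 and 101 CPM in the same FbM libraries and 0.987, 2.63 and 3.83 CPM in the FcM libraries. FcM_1962 held more receptor transcript than FbM_1944 and FbM_1951, and less calgranulin transcript than any FbM library.

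**Figure D4:**
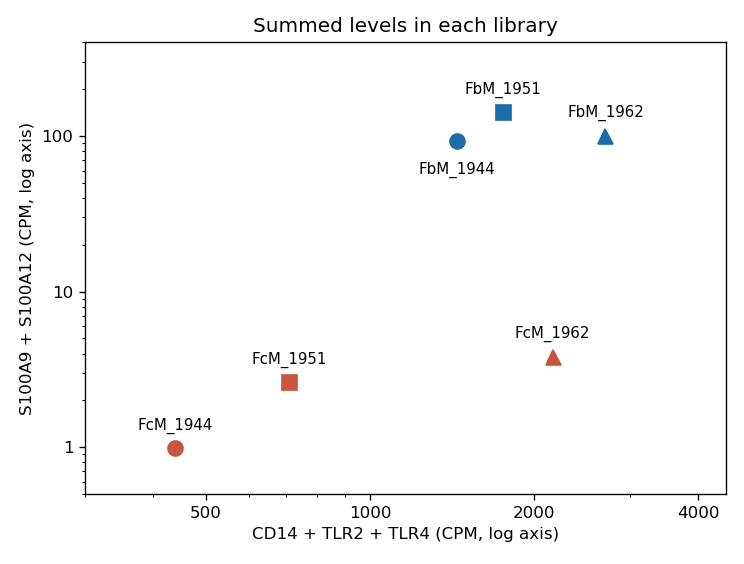
Summed level of CD14, TLR2 and TLR4 (x axis) against summed level of S100A9 and S100A12 (y axis) in each library, in CPM on log axes; blue is FbM, red is FcM, and marker shapes are the numbers in the titles. FcM_1962 lies at 2163 CPM for the receptors, between the FbM libraries, and at 3.83 CPM for the calgranulins, beside the other FcM libraries.

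Against all genes tested, the calgranulins lay far out on the lower side and the receptors did not. With all libraries, 0.577% of genes had a lower fitted change than S100A12 and 0.690% a lower one than S100A9. For CD14, TLR2 and TLR4 these shares were 16.9%, 15.2% and 17.4%. The median log2 change of all genes was 0.04. The spread between libraries that edgeR estimated for each gene (the biological coefficient of variation) was 0.384 for S100A12, 0.622 for S100A9, 0.482 for TLR4, 0.544 for TLR2 and 0.569 for CD14. Genes of their levels had 0.398, 0.540, 0.414, 0.411 and 0.475 in the same order, so S100A12 was estimated to vary slightly less than genes of its level and the other 4 more.

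**Figure D5:**
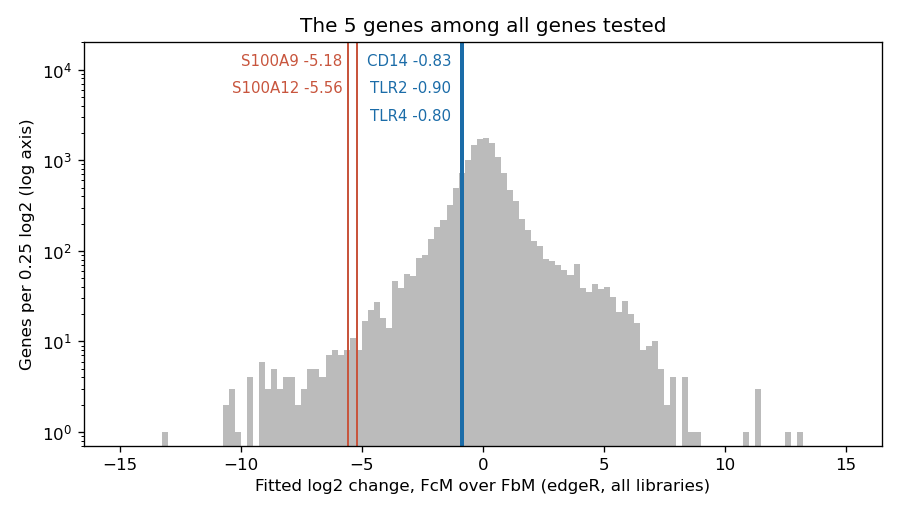
Number of genes (log axis) by fitted log2 change, FcM over FbM, in steps of 0.25, over the 14211 genes tested with all libraries by edgeR. Lines mark the 5 genes: S100A12 at -5.56 and S100A9 at -5.18 in the lower tail, and TLR2, CD14 and TLR4 between -0.90 and -0.80.

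The gene whose log2 CPM over the 6 libraries was most like that of S100A12 was ENSBTAG00000056991 (Pearson r = 0.999). It ranged from 3.90 to 5.65 CPM in FbM and from 0.0617 to 0.308 CPM in FcM. In the FcM libraries 3 reads correspond to 0.168 to 0.185 CPM, so these FcM levels rest on few reads. At a prior count of 0.5 the correlation was 0.997. The gene most like TLR4 was ENSBTAG00000002624 (Pearson r = 0.999 over the 6 libraries), which ranged from 48.2 to 92.9 CPM in FbM and from 12.95 to 60.8 CPM in FcM, with its highest FcM level in FcM_1962. Only 6 libraries, from both media, enter each correlation, and 432 genes had a correlation above 0.95 with S100A12 and 183 with TLR4, so these are the nearest of many. The IDs of both genes were not paired with names.

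CD14 was the single gene of the 5 with reads shared with a gene on the other strand. In the count tables its reads in the 2 stranded columns summed to more than its reads in the column without strand, which was used here, by 1512 to 7839 reads per library. These reads were 20.9%, 14.1% and 21.3% of the stranded sum in FbM_1944, FbM_1951 and FbM_1962 and 23.3%, 16.7% and 22.0% in FcM_1944, FcM_1951 and FcM_1962. The ranges of the media overlapped, but within each of the 3 numbers the share was higher in FcM. It was lowest in FbM_1951 and FcM_1951 within their media. For TLR2, TLR4, S100A9 and S100A12 the difference was 0 reads in every library. The RefSeq annotation of ARS-UCD2.0, another build than that of the counts, lists no gene that overlaps CD14, so the gene on the other strand is not named. It lists RNF175 as overlapping TLR2, which had no shared reads. With the stranded sum as its count, a choice made after the data were examined, CD14 averaged 1650 CPM over FbM and 952 CPM over FcM, with a log2 change of -0.80 (edgeR adjusted p = 0.453), so the overlap did not change its result.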

How the data were processed

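Libraries were made from poly-T-selected messenger RNA with random hexamer priming, per the labels' protocols. The authors deposited, for each library, raw counts of reads per gene without strand and for each strand. STAR, edgeR and the build ARS-UCD1.2 are named in the submitters' processing notes, with versions and parameters not given in the sources used here. The sense column held 50.5% to 50.8% of stranded reads, so the column without strand was used, in which reads of overlapping genes on the 2 strands cannot be told apart. Library sizes leave out the 4 summary lines. Ambiguous reads were 4.58% to 5.69% of aligned reads listed, and the line for reads at several places was 0.

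Libraries were grouped by title. The protocol abbreviates the fibrocyte medium differently from the titles, which were read as initials. From the counts, CPM were computed with TMM factors of 0.919 to 1.13, and log2 CPM at a prior count of 2. FcM was compared with FbM by edgeR 4.0.16 in R 4.3.3 (filterByExpr, TMM, glmQLFit, glmQLFTest) over all genes, calling genes at a Benjamini-Hochberg adjusted p under 0.05. Standard errors were derived from the fold change and the F statistic. The scripts were tested on simulated data. Alternatives were DESeq2 1.42.0, limma 3.58.1 with voom, other scalings, filters and count columns, the number as a block, and leaving libraries out. Deviations of same-numbered libraries from their medium's mean correlated across genes at 0.40 (FbM_1944, FcM_1944), 0.25 (FbM_1951, FcM_1951) and 0.34 (FbM_1962, FcM_1962), all above 0.1. The numbers were therefore taken to pair the libraries in the block fit, although the labels do not state what they mark. The main fit leaves this pairing out. The gene set and lists were chosen with earlier results of these data known. The rule for named genes took all measured genes of the set and, by ID, the genes most correlated with them, at most 2 in each direction. Lists fixed by symbol (other Toll-like receptors, adaptors, NF-κB, other S100 genes, cell type markers) were not analysed here, since 0 of the 37063 rows of the RefSeq table (ARS-UCD2.0) pair an Ensembl ID with a symbol. It served for neighbouring genes, by symbol (6 of 6 matched).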

Additional observations from a re-analysis of the deposited data

How the results depend on the processing

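No gene of the 5 changed sign in any of 27 alternatives, an outcome that the lack of overlap makes near certain for S100A9 and S100A12. Against 495 genes and 2 of the 5, DESeq2 called 2819 genes and 2 of the 5, limma-voom 401 and 1 (S100A9 lost its call, adjusted p = 0.0544, log2 change -5.55), and, chosen after the data were examined, voom with library quality weights called 4648 genes and all 5. Under these weights the log2 change was -1.51 for CD14, -1.67 for TLR2 and -1.28 for TLR4. Without FcM_1962, also chosen afterwards, DESeq2 called 5614 genes and edgeR with the block 4879, and both called all 5, with log2 changes of -1.84 and -1.60 for CD14, -1.80 and -1.28 for TLR2 and -1.53 and -1.29 for TLR4. The replicate block, which uses the pairing by number, gave 427 genes with all libraries and changed no call of the 5 (adjusted p = 0.0241 for S100A12, 0.0318 for S100A9, 0.0892 for TLR2, 0.145 for TLR4 and 0.172 for CD14). All 5 had an unadjusted p under 0.05 in this edgeR fit, as did 3980 genes in all. For the receptors it was 0.0453 for CD14, 0.00737 for TLR2 and 0.0299 for TLR4. Leaving out 1 library, or both of a number, gave 0 to 4394 genes and 0 to 5 of the 5. The 0 genes, without FbM_1951 and FcM_1951, stand beside 1430 with an unadjusted p under 0.05 in edgeR and 850 called by DESeq2. Wherever edgeR called 0 of the 5, S100A9 and S100A12 had an unadjusted p under 0.05 and DESeq2 called both. Over these fits the log2 change lay from -1.83 to -0.43 for CD14, -1.80 to -0.39 for TLR2, -1.53 to -0.45 for TLR4, -6.05 to -4.67 for S100A9 and -6.03 to -5.21 for S100A12. Scalings, filters and count columns left all calls of the 5 as they were. Scaling by library size alone moved the median of all genes from 0.04 to 0.15. The cause of the differences between tools was not tested. Lists by symbol were not run, and S100A8 was not analysed here. Depth limits S100A9 most, with 1 to 15 reads per FcM library.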
